A study of Mus musculus with 6 samples.

Results

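The immediate early response genes of isolated mouse pancreatic islets were followed in 6 RNA-seq libraries, each taken singly and then by genotype. The members were a list of 42 genes grouped here as immediate early response genes, matched by symbol, and all 42 were found among the 55536 genes of the deposited count table. How fast or how strongly each is induced was not measured, and the list also holds steadily expressed genes such as Jund. Islets are the hormone-producing cell clusters of the pancreas, and whole islets were sequenced as polyadenylated RNA. The 3 control libraries came from Klf4+/+;Gcg-iCre mice, which have intact Klf4 alleles. The 3 knockout libraries came from Klf4fl/fl;Gcg-iCre mice, in which both Klf4 alleles are floxed. Gcg-iCre, in which the glucagon gene drives Cre so that it acts in alpha cells, was thus present in controls and knockouts alike, and the series gives the background as C57B1/6J. The age and sex of the mice, and how and for how long the islets were handled, are not given in the sources used here. Klf4 was targeted in alpha cells, a minority of islet cells, and every value below is a sum over alpha, beta, delta and non-endocrine cells, and fewer cells of a type and less RNA per cell cannot be told apart. Nothing in the labels says that the libraries of a group came from separate animals, so p-values measure only the spread between these libraries.

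Immediate early genes are transcribed without new protein synthesis when calcium, cyclic AMP, growth factors or stress activate kinases that act on factors already bound at their promoters, chiefly CREB at cyclic AMP response elements and serum response factor with its ternary complex partners at CArG boxes. Many encode transcription factors of the FOS, JUN and EGR families, and others encode phosphatases and RNA-decay factors that shut the response down again. In islets glucose and hormone stimulation induce them, and they are also known to respond to the isolation and dissociation of tissue.

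The libraries held 101277200 to 110243918 counts each. Klf4, the targeted gene and itself a Kruppel-like factor with an early response to stimuli, had 3148, 2879 and 2015 normalized counts (counts divided by the library's size factor) in the controls, replicates 1 to 3 in that order here and throughout. The knockouts had 2340.4, 2540.1 and 2277. The groups overlapped, and the knockouts differed from the controls by -0.17 ± 0.15 (log2 fold change and SE; adjusted p = 0.774, DESeq2), so the whole-islet count of Klf4 does not check the labels. Xist, the RNA of the inactive X chromosome, ran from 77938 to 108105 normalized counts in controls and from 12.4 to 30.2 in knockouts, while the Y-linked Ddx3y had 0 counts in each control library and 5599 to 6265 normalized counts in the knockouts. Sex, as these transcripts show it, and genotype divide the libraries identically and cannot be told apart in any comparison below.

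The promoters of the members are shown first, as background to the values below. RefSeq windows on GRCm38.p6, covering the 250 bases before an annotated start, were found for 34 of the 42 members; Arc, Egr1, Egr3, Fosl1, Ier2, Myc, Sik1 and Trib1 had none. Each window was searched on both strands for the cyclic AMP response element TGACGTCA, for its core TGACG (which the full element contains), for the CArG box, for the AP-1 site TGAGTCA and for the KLF-type motif GGGTGTG. The core was present before at least 1 start in 20 of the 34 members (58.8%), against 22.5% of 17462 protein-coding genes. The full element was present in 5 members (14.7%, against 2.20%), namely Btg2, Dusp1, Errfi1, Maff and Plk2, and the CArG box in 4 (11.8%, against 1.60%), namely Dusp5, Egr2, Srf and Zfp36. The AP-1 site and the KLF-type motif were each present in 1 member (2.94%), Csrnp1 and Atf3, against 4.78% and 8.17% of protein-coding genes. The core contains CG, and the member windows were richer in G and C, at 62.5% on average against 55.5% over the windows of protein-coding genes; some members also had more than 1 start. These are matches of letters and not measured binding, and sites more than 250 bases before a start were not searched. The absence of a motif, as of a CArG box for Fos, thus holds for the window only, and nothing is known here for members without a window, such as Egr1.

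The windows of 6 members are printed 5′ to 3′ on the strand of the gene, with TGACG cores and CArG boxes in capitals: Fos as the founding member, Fosb and Errfi1 as the members past the threshold below, and, among the 36 members with a mean of at least 50 normalized counts, Npas4 and Rgs2 as those with the widest range between libraries and Dusp5 as the one with the narrowest.
Fos: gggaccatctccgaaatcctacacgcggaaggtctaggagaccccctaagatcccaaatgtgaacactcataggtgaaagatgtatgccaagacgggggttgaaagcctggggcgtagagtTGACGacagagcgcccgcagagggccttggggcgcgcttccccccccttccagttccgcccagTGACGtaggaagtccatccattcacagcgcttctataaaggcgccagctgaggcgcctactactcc
Fosb: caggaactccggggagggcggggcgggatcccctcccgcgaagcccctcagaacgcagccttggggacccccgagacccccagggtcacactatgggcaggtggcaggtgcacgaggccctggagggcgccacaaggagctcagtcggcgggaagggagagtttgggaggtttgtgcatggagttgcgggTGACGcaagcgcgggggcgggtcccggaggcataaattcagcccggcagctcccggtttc
Errfi1: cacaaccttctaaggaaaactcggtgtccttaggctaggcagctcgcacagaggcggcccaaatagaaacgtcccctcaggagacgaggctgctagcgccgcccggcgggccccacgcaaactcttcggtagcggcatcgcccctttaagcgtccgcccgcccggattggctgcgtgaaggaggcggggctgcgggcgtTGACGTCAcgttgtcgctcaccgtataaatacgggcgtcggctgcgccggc
Npas4: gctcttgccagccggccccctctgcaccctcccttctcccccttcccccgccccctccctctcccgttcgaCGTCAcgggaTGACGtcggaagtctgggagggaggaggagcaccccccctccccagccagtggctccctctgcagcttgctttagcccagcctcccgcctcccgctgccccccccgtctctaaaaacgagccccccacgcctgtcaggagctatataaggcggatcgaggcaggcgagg
Rgs2: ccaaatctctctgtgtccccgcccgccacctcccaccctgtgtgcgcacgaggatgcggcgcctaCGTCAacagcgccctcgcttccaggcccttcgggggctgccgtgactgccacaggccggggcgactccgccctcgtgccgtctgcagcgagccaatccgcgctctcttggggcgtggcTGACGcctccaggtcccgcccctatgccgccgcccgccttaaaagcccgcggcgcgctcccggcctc
Dusp5: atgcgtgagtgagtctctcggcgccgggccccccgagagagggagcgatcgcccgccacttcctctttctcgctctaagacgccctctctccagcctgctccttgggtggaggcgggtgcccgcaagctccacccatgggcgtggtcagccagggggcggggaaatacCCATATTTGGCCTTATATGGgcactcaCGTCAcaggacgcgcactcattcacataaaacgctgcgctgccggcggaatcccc
They lie at chr12:85473640-85473889 on the plus strand for Fos, chr7:19310046-19310295 on the minus strand for Fosb, chr4:150854820-150855069 on the plus strand for Errfi1, chr19:4989972-4990221 on the minus strand for Npas4, chr1:144004150-144004399 on the minus strand for Rgs2 and chr19:53528895-53529144 on the plus strand for Dusp5. Positions are counted back from the annotated start, the base before it being -1. Fos has cores at -129 to -125 and -66 to -62, and Fosb has 1 at -60 to -56. In Errfi1 the pair at -51 to -47 and -48 to -44 overlaps to form the full element; this window belongs to the second of its annotated starts, and the window of the first start held none of the motifs. Npas4 and Rgs2 each hold 2 cores. Dusp5 has adjoining CArG boxes at -82 to -73 and -72 to -63 and a core at -55 to -51. Whether the motifs bear on how far a gene varied between libraries was not tested.

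Levels of different genes were compared per length, as TPM computed from the counts over merged exon lengths. Rgs2, which encodes a brake on G-protein signalling, was the most abundant by its mean over the 6 libraries, at 190.0 ± 77.5 TPM in controls against 242 ± 104 TPM in knockouts (mean ± SD of 3 libraries, as for all TPM values here). Fos followed at 165 ± 44.5 and 194 ± 9.47, and Jund, the JUN family member with the steadiest expression in most tissues, at 187 ± 6.97 and 170 ± 13.0. In controls these 3 lay within each other's spread, and in knockouts Fos and Jund were just over 1 SD apart on each side. Egr1, a zinc finger factor, was next at 114 ± 31.3 and 128 ± 9.69, and Gadd45g followed at 96.3 ± 9.93 and 82.4 ± 7.22, overlapping Egr1 in controls and below it in knockouts. Jun, Btg2, Btg1 and Junb lay between 59.2 and 89.1 TPM by group mean. Fosb, at 10.5 ± 1.08 and 15.0 ± 2.09, was far below Fos. Npas4, an activity-dependent factor of neurons and beta cells, was at 5.37 ± 3.50 and 4.87 ± 0.777.

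**Figure D1:**
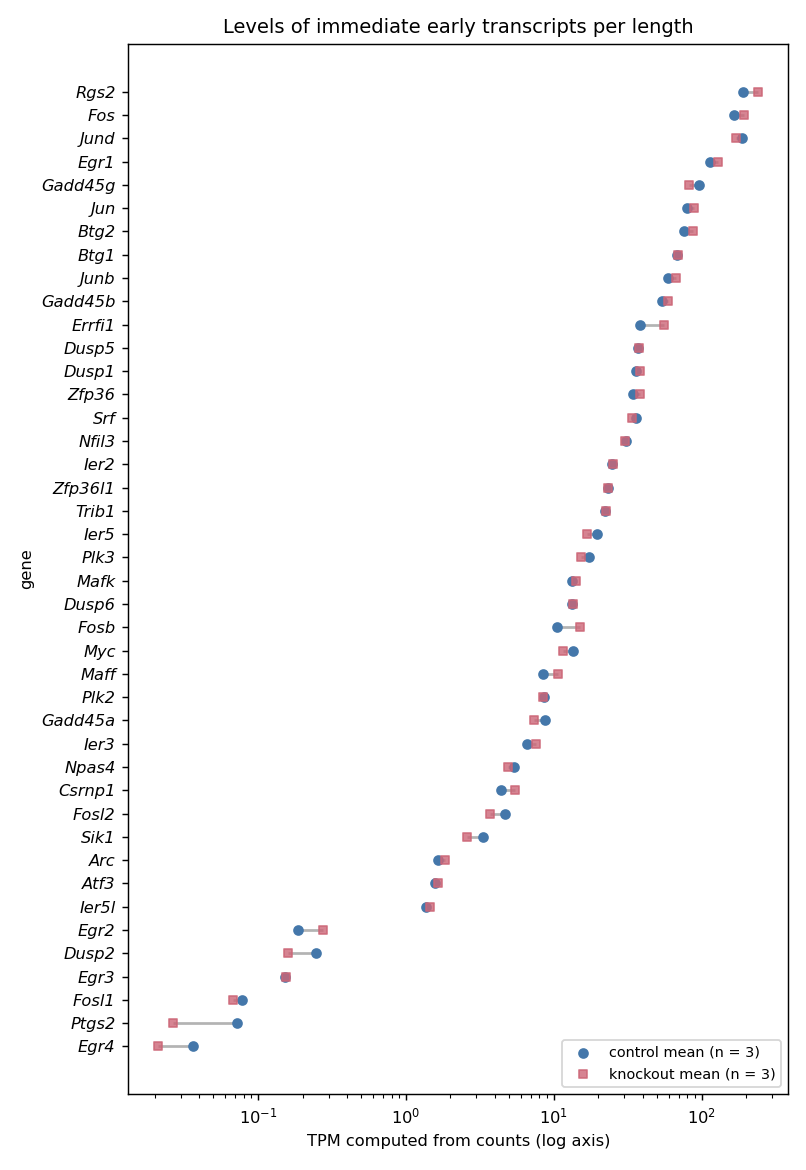
Mean TPM of the 42 immediate early genes (log axis) in control (circles) and knockout (squares) libraries, n = 3 each, ordered by the mean over both groups. Rgs2 is at the top with 190.0 TPM in controls, and 6 genes lie below 1 TPM.

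A set of 6 members lay near the bottom of the range, below 1 TPM and below a mean of 50 normalized counts, the minimum set for describing variation between libraries. Their raw counts ran from 2 to 16 for Fosl1, from 22 to 60 for Egr2, from 14 to 52 for Egr3, from 0 to 6 for Egr4, from 8 to 26 for Dusp2 and from 4 to 26 for Ptgs2, the inducible cyclooxygenase. Egr4 had 0 counts in knockout replicate 3, which allows up to 3 counts (0.0292 CPM, counting error only). Fosl1, Egr4, Dusp2 and Ptgs2 were given no adjusted p by DESeq2, and Egr2 and Egr3 did not pass. The remaining 36 members had a mean of at least 50 and are the ones counted below.

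Taken library by library, control replicate 3 stood below the others for most members. It was the lowest of the 6 libraries for 21 of the 36 (58.3%), against 20.6% of the 15811 genes with the same minimum mean, and the lowest of the 3 controls for 23 (63.9%, against 34.8%). The median deviation of the members from their own 6-library mean was -0.26 on the log2 scale in that library. It was 0.11 and 0.033 in control replicates 1 and 2, and 0.017, 0.14 and -0.051 in knockout replicates 1 to 3; over all genes the 6 medians lay between -0.0052 and 0.012. Knockout replicate 2 was the highest library for 14 members (38.9%, against 13.3% of all genes). Control replicate 3 was lowest of the controls, and at the same time knockout replicate 2 highest of the knockouts, for 18 of the 36 members, a pattern shared by 12.4% of all genes. The 18 were Fos, Fosb, Fosl2, Jun, Junb, Maff, Egr1, Myc, Npas4, Csrnp1, Dusp1, Dusp6, Rgs2, Trib1, Zfp36, Btg1, Gadd45a and Gadd45b, picked out after their values were seen. An earlier look at these libraries had already shown control replicate 3 to be low for a related list, so these counts describe the libraries and support nothing further.

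**Figure D2:**
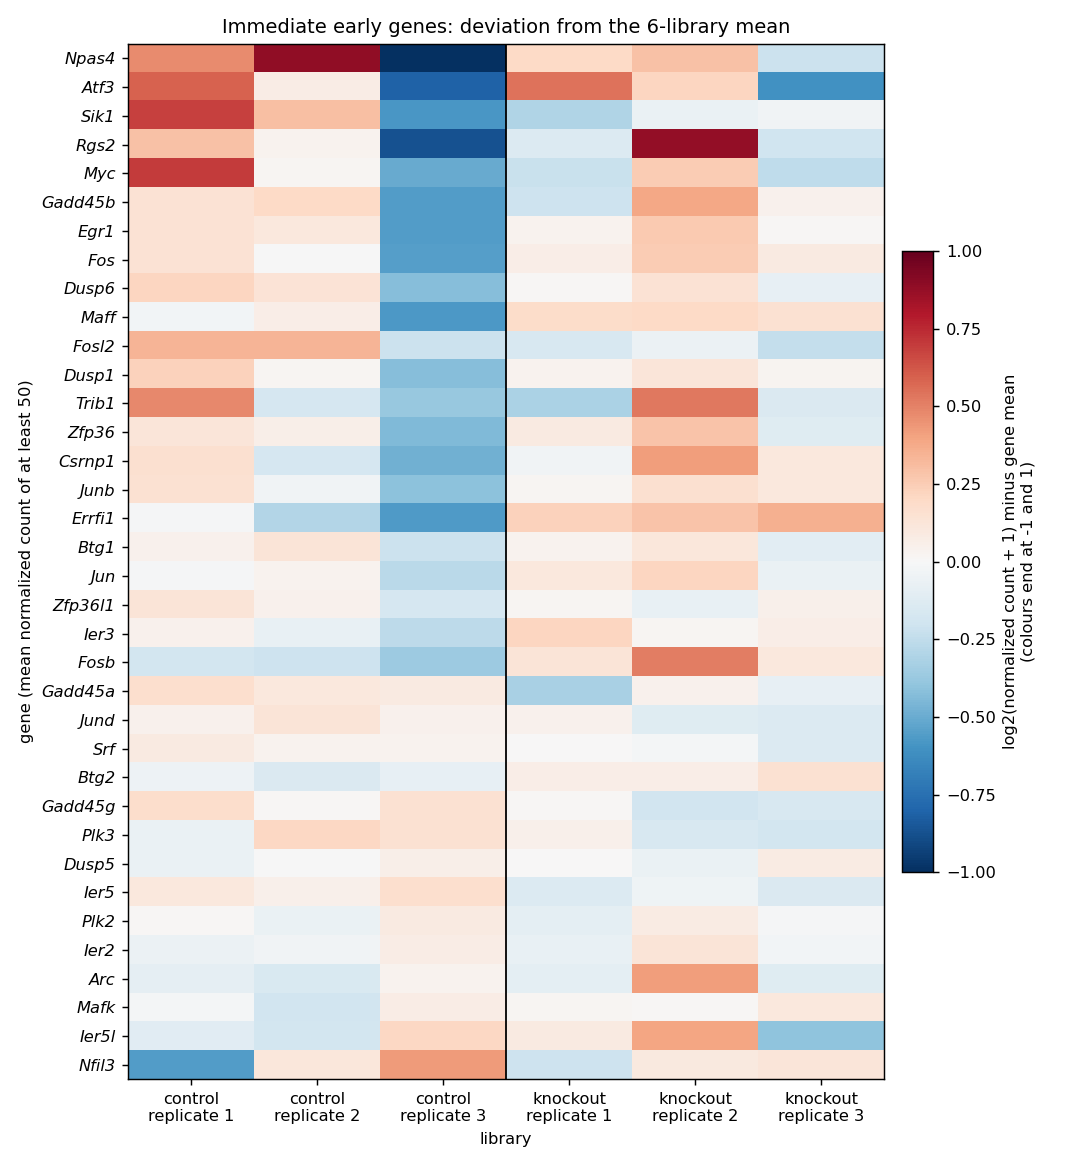
Deviation of each of 36 immediate early genes from its own mean over the 6 libraries, as log2(normalized count + 1), ordered from the gene furthest below the other controls in control replicate 3 (Npas4) to the one furthest above them (Nfil3). A dip in the third column marks the genes that were low in control replicate 3, which is near 0 or absent from Gadd45a to the end of the order.

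Npas4 showed the widest range of the 36. Control libraries had 1125, 1499 and 259.9 normalized counts and knockout libraries 932, 996 and 699, a range of 5.75-fold. All knockout libraries thus lay between the low control and the other controls. Rgs2 ranged 3.35-fold, with 38994, 32556 and 17401 normalized counts in the controls and 28847, 58377 and 27599 in the knockouts. Its highest library, knockout replicate 2, stood well apart from the other knockouts. Atf3, a stress-induced bZIP factor, was at 211, 148 and 79.6 in controls and at 205, 163 and 91.8 in knockouts. Its values fell into the same spread in both genotypes.

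Sik1, a kinase that restrains CREB co-activators, was at 1006, 774 and 419 normalized counts in controls and at 507, 597 and 613 in knockouts. Only control replicate 3 was below the knockouts. Myc was at 2289, 1429 and 991 in controls and at 1205, 1677 and 1183 in knockouts, so control replicate 1 stood highest. Gadd45b, a stress and growth-arrest gene, was at 4219, 4373 and 2586 in controls and at 3295, 4973 and 3918 in knockouts. Trib1, a pseudokinase, was at 8106, 5180 and 4467 in controls and at 8364 in knockout replicate 2, with 4677 and 5273 in the other knockouts. Here 1 library of each genotype was high and the rest lay together. Csrnp1, a nuclear factor induced by AXIN, was at 812, 649 and 522 in controls and at 712, 976 and 783 in knockouts.

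Fos itself had 19918, 17921 and 12295 normalized counts in the controls and 18868, 21415 and 19121 in the knockouts. Egr1 followed the same order in the controls, with 25627, 24983 and 15728, and was at 23674, 27798 and 23295 in the knockouts. Jun moved less, with 11503, 11912 and 9666 against 12478, 13454 and 11077. In all 3 genes control replicate 3 was lowest, knockout replicate 2 highest, and the genotypes overlapped.

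**Figure D3:**
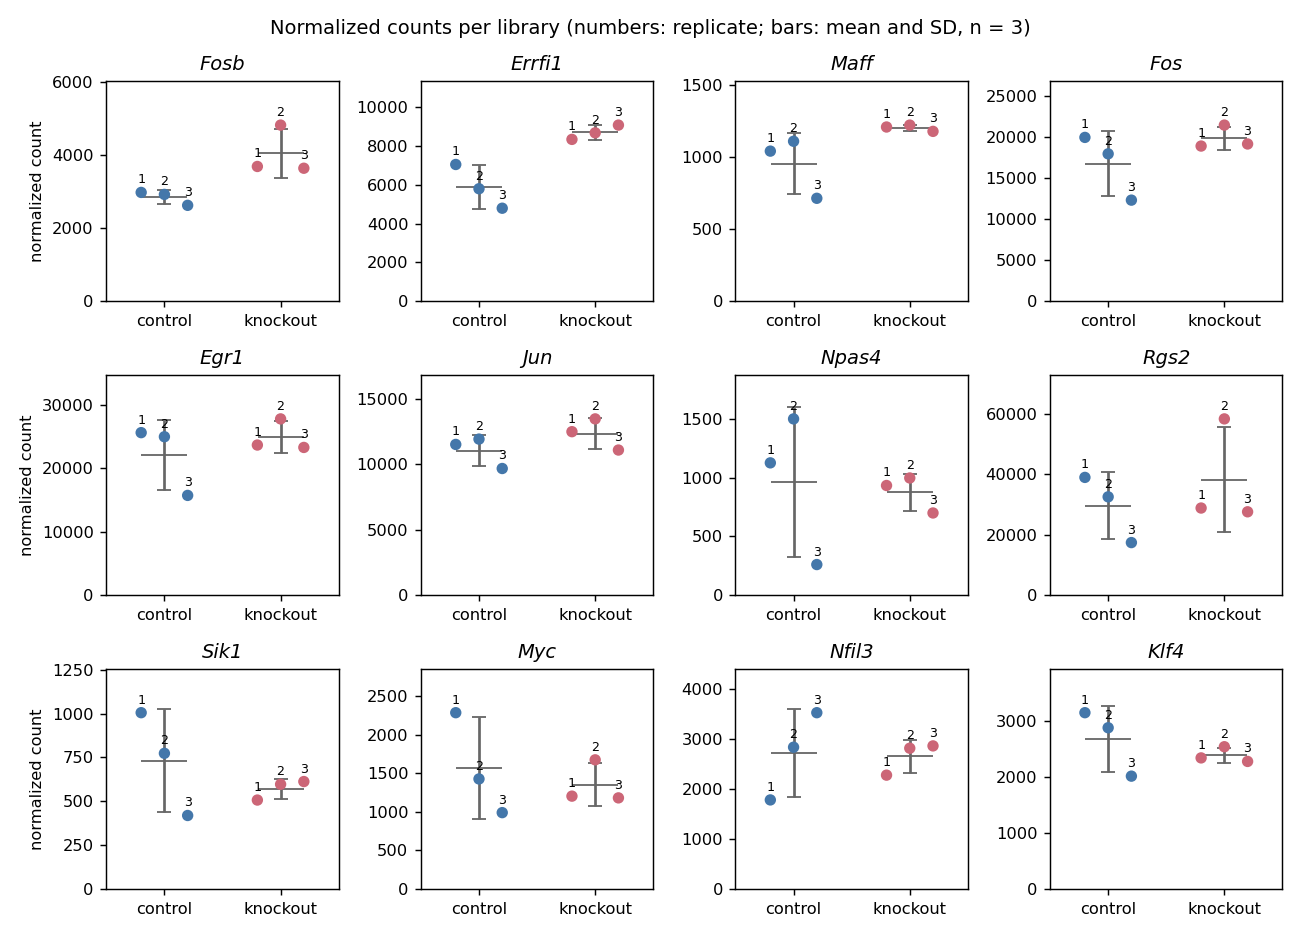
Normalized counts per library (linear axes from 0) of 11 immediate early genes and of Klf4, with the replicate number above each point and the mean and SD of each genotype (n = 3). Fosb and Errfi1 are higher in every knockout than in every control library, while Npas4, Rgs2, Fos and Egr1 show a low control replicate 3.

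Other members did not share this order. Nfil3, a bZIP repressor of the circadian and immune systems, ran the opposite way in the controls, at 1783, 2840 and 3531 normalized counts, and was at 2280, 2820 and 2866 in the knockouts. Control replicate 3 was not the lowest control for 13 of the 36 members and was the highest of the controls for 8. A group of 9 members stayed within a 1.25-fold range over all 6 libraries, among them Dusp5 (3831 to 4249 normalized counts), Plk2 (1542 to 1751), Ier2 (1558 to 1794) and Srf (3963 to 4659.7). Dusp5 is a nuclear ERK phosphatase, Plk2 a polo-like kinase and Srf the serum response factor that acts at CArG boxes. At the other end, 14 members (38.9%) were at least 0.5 lower on the log2 scale in control replicate 3 than in the mean of the other controls, against 7.64% of all genes.

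The spread within a genotype differed between the groups. The median SD of the members, on log2(normalized count + 1), was 0.24 in controls and 0.11 in knockouts, against 0.13 and 0.090 over all genes with the same minimum mean. Without control replicate 3 the members' median SD in the controls was 0.065, and without knockout replicate 2 that in the knockouts was 0.076. Each of these rests on 2 libraries, with the most deviant left out, and is not comparable with an SD of 3. A range of at least 2-fold over the 6 libraries was seen for 5 of the 36 members (13.9%), against 11.3% of all genes, so very wide ranges were not much commoner among the members.

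Between genotypes, Fosb and Errfi1 rose in DESeq2 and no member fell. These 2 of the 38 members given an adjusted p passed 0.05 in DESeq2 with adjustment over all genes, against 2.19% of the 17797 genes given one (389 genes, with 1.53% higher and 0.657% lower). The median log2 fold change of the 36 members was 0.056, with 23 above 0 and 13 below, and that of all genes with the same minimum mean was -0.0066. In edgeR's quasi-likelihood test none of the 42 members passed, where 0.115% of all genes did (29 genes, 0.0952% higher and 0.0198% lower). At an unadjusted p under 0.05 edgeR gave 6 members and DESeq2 7, against 9.48% and 9.03% of all genes.

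Fosb, which encodes an AP-1 subunit and its long-lived splice form ΔFosB (ENSMUSG00000003545, chromosome 7, 19302696 to 19310051, minus strand, GRCm38), had 2983, 2929 and 2629.8 normalized counts in the controls and 3695, 4829 and 3646 in the knockouts. Every knockout library lay above every control, and knockout replicate 2 was again highest. Means were 2847 ± 190.5 and 4057 ± 669 (SD over 3 libraries). The log2 fold change was 0.51 with an SE of 0.12, or 1.42-fold, and the adjusted p was 0.00286 in DESeq2 and 0.187 in edgeR. Gene-level counts do not separate the splice forms.

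Errfi1, the feedback inhibitor of the EGF receptor family also known as MIG6 (ENSMUSG00000028967, chromosome 4, 150853919 to 150868892, plus strand), was at 7043, 5795 and 4792 normalized counts in controls and at 8335, 8672 and 9071 in knockouts. It did not follow knockout replicate 2, and its knockout libraries lay close together. Means were 5877 ± 1128 and 8693 ± 368, a log2 fold change of 0.56 ± 0.12 (SE), or 1.48-fold, with an adjusted p of 0.001 in DESeq2 and 0.186 in edgeR. No annotated gene overlaps the exons of Fosb or Errfi1 on the opposite strand. Among the other members, 12 do have such an overlap, and their counts are uncertain because the strand setting is not given. They are Fosl1, Jun, Junb, Jund, Mafk, Csrnp1, Dusp1, Dusp5, Plk3, Zfp36, Zfp36l1 and Gadd45a, and the limit holds for their values throughout.

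**Figure D4:**
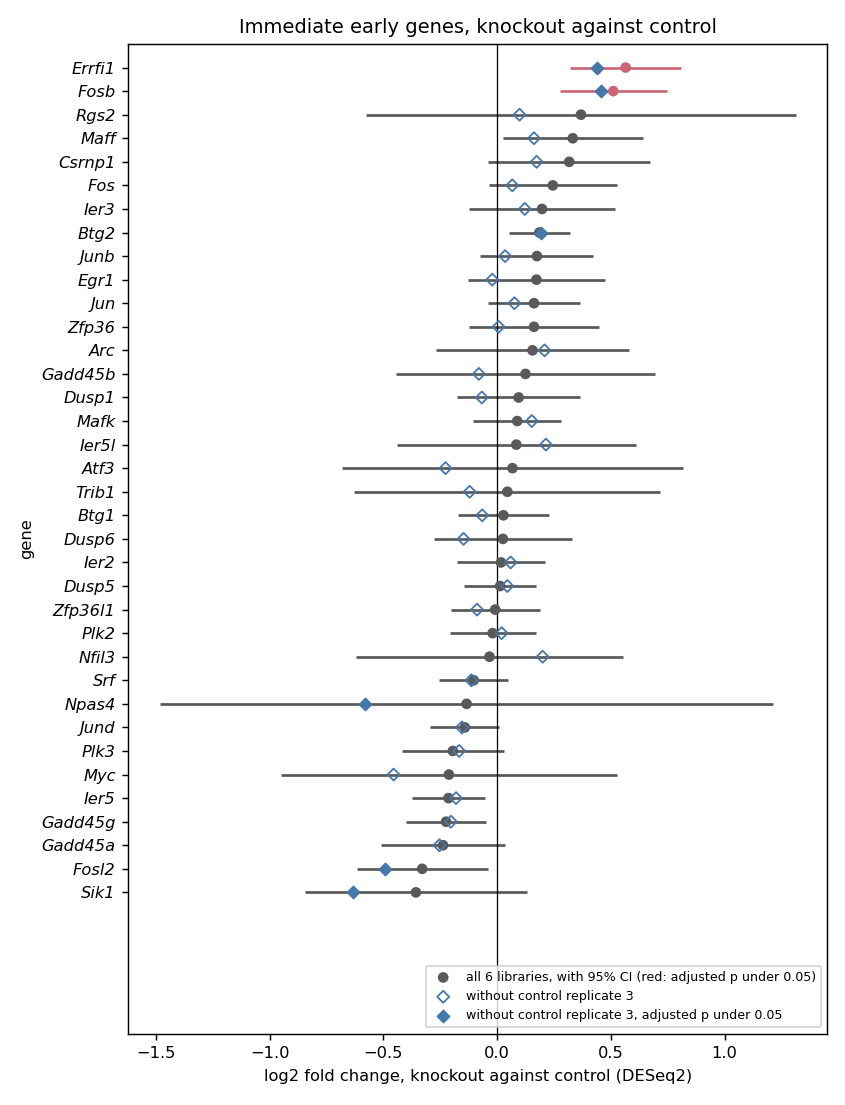
Log2 fold change of knockout against control for 36 immediate early genes in DESeq2, with 95% confidence intervals from all 6 libraries (circles; red where the adjusted p is under 0.05) and the estimate without control replicate 3 (diamonds; filled where the adjusted p is under 0.05). Errfi1 and Fosb pass in both, and Btg2, Npas4, Fosl2 and Sik1 pass only without that library.

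Among the other FOS, JUN and related bZIP members none passed over all 6 libraries. Maff, a small MAF protein, had the next clearest separation, with 1042, 1111 and 715 normalized counts in controls and 1209.9, 1223 and 1179.5 in knockouts. Its groups did not overlap, but the log2 fold change of 0.33 ± 0.16 (SE) had an adjusted p of 0.372. Fos, Junb and Jun had log2 fold changes of 0.24 ± 0.14, 0.17 ± 0.13 and 0.16 ± 0.10, with adjusted p of 0.548, 0.688 and 0.611 (DESeq2). Fosl2 and Jund were below 0, at -0.33 ± 0.15 and -0.14 ± 0.08, and Mafk and Atf3 were at 0.09 ± 0.10 and 0.07 ± 0.38. The 95% interval for Fos, from -0.037 to 0.53, did not reach a change as large as that estimated for Errfi1.

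The EGR and other transcription factor members did not pass either. Egr1 was at 0.17 ± 0.15 on the log2 scale (adjusted p = 0.781, DESeq2). Npas4 and Myc, at -0.13 ± 0.69 and -0.21 ± 0.38, had wide errors. Srf had groups that did not overlap, with 4462 to 4659.7 normalized counts in controls and 3963 to 4369 in knockouts, but at -0.10 ± 0.08 did not pass (adjusted p = 0.699).

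Members that switch the response off did not pass the threshold, Errfi1 apart. Dusp1, Dusp5 and Dusp6, phosphatases that inactivate MAP kinases, had log2 fold changes of 0.09 ± 0.14, 0.01 ± 0.08 and 0.03 ± 0.15. Zfp36 and Zfp36l1, which bind AU-rich mRNA and promote its decay, were at 0.16 ± 0.15 and -0.01 ± 0.10. Btg2, an antiproliferative partner of the deadenylase complex, was at 9355, 8752 and 9160 normalized counts in controls and at 10144, 10123 and 10742 in knockouts. Its groups did not overlap, but at 0.19 ± 0.07 on the log2 scale it did not pass (adjusted p = 0.152, DESeq2).

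Of the stress and growth-arrest members, Gadd45a was at 650.3 to 687 normalized counts in controls and 487 to 629 in knockouts, without overlap, and Gadd45g at 4548 to 5102 and 3964 to 4562, with a slight overlap. Their log2 fold changes of -0.24 ± 0.14 and -0.22 ± 0.09 did not pass (DESeq2 adjusted p = 0.542 and 0.214). Ier5, at 2654 to 2892 in controls and 2323 to 2494 in knockouts, likewise had separate groups and an adjusted p of 0.188 in DESeq2. Of its relatives, Ier2, Ier3 and Ier5l were at log2 fold changes of 0.02 ± 0.10, 0.20 ± 0.16 and 0.08 ± 0.27. Rgs2 had a log2 fold change of 0.37 ± 0.48 and Sik1 of -0.36 ± 0.25 (adjusted p = 0.886 and 0.664 in DESeq2), and the polo-like kinases Plk2 and Plk3 were at -0.02 ± 0.10 and -0.19 ± 0.11. Arc, a synaptic effector, ranged from 207 to 307 normalized counts over the 6 libraries, at 0.16 ± 0.22. In all, groups did not overlap for 4 members higher in knockouts (Fosb, Errfi1, Maff, Btg2) and 3 lower (Ier5, Gadd45a, Srf), against 9.42% and 8.54% of all genes, or 18.0% in either direction. For 22 of the 36 members the 95% interval lay within a 1.5-fold change in either direction.

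The comparison was repeated without control replicate 3, the library that stood apart. In that fit 6 members passed, against 6.28% of the genes given an adjusted p (952 of 15160, with 3.80% higher and 2.48% lower). Fosb and Errfi1 stayed above 0, at log2 fold changes of 0.46 ± 0.13 and 0.44 ± 0.09 (SE, adjusted p = 0.0118 and 0.000275 in DESeq2), and Btg2 passed at 0.19 ± 0.06 (adjusted p = 0.0459). Sik1, Npas4 and Fosl2 passed as lower in knockouts, at -0.64 ± 0.17, -0.58 ± 0.19 and -0.49 ± 0.09 (adjusted p = 0.00491, 0.0348 and 1.22e-05). With 2 control libraries these 3 genes lay below both controls in every knockout library. All 3 were lowest of the controls in the library left out, so its removal raises their control mean and narrows their spread by construction. Their adjusted p values here are therefore no independent result. The median log2 fold change of the 36 members was -0.0078 in this fit. Fos, Egr1, Junb and Dusp1 were then at 0.07 ± 0.08, -0.02 ± 0.09, 0.03 ± 0.08 and -0.07 ± 0.08, none past the threshold. Klf4 also passed in this fit, at -0.34, and its counts, like those of most members, were lowest in control replicate 3. Leaving out any other single library left Fosb and Errfi1 as the members past the threshold.

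Other early response genes, from a list of 36 outside the members, showed part of the same library order. Control replicate 3 was the lowest library for 11 of them (30.6%) and the lowest control for 23 (63.9%), against 20.6% and 34.8% of all genes. In DESeq2 1 of the 36 rose and 2 fell, against 1.53% and 0.657% of all genes, and in edgeR none passed. Before adjustment 9 genes had p under 0.05 in edgeR and 10 in DESeq2, against 9.48% and 9.03% of all genes. Nfkbiz, an inducible regulator of NF-kappaB, rose, with 2569 to 3714 normalized counts over the controls and 4750 to 7004 over the knockouts (log2 fold change 0.89, adjusted p = 3.66e-06 in DESeq2, 0.139 in edgeR). Crem, which encodes the cyclic AMP early repressor, fell, with 2025 to 2124 normalized counts over the controls and 1549 to 1596 over the knockouts (-0.41, adjusted p = 0.000183, 0.118 in edgeR). Nr4a3 also fell, at -1.17 (adjusted p = 0.0166, 0.283 in edgeR, and past the threshold in 7 of 13 alternatives). In DESeq2 Nr4a3 did not pass without control replicate 1 (0.175) or 2 (0.169), or without knockout replicate 2 (0.0741) or 3 (0.152). Its relatives Nr4a1 and Nr4a2, at -0.35 and -0.11, did not pass (adjusted p = 0.856 and 0.861). Nr4a1 was at 3419.9, 3516 and 1490.5 normalized counts in the controls and so had the same low control replicate 3 as Fos. Without that library 1 gene of this list was higher and 7 lower, Nr4a1 among the latter, against 3.80% and 2.48% of all genes.

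The kinases, cofactors and transcription factors that act upstream of the members did not share the low values of control replicate 3. Of 30, control replicate 3 was the lowest library for 5 (16.7%, against 20.6% of all genes), and the median deviation in that library was 0.0094. Mrtfa, a co-activator of SRF, passed, at 3294 to 3588 normalized counts in controls and 3984 to 4140.3 in knockouts (log2 fold change 0.26, DESeq2 adjusted p = 0.0306), and it did not pass in edgeR (0.201), under the replicate block (0.0887), on halved counts (0.0619) or, in DESeq2, without control replicate 2 (0.114), knockout replicate 1 (0.268) or knockout replicate 3 (0.158). None of 16 delayed targets of the response passed in DESeq2 or edgeR, with 6 at an unadjusted p under 0.05 in each, against 9.03% and 9.48% of all genes. Of 11 heat shock genes, which respond to protein damage, the co-chaperones Dnajb1 and Dnaja1 fell, at -0.50 and -0.24 (DESeq2 adjusted p = 0.00261 and 0.0416, edgeR 0.196 and 0.306), and all 11 had log2 fold changes below 0. Of all genes 0.657% fell in DESeq2, and 8207 of the 15811 with a mean of at least 50 were below 0. Of 13 alternatives Dnajb1 passed in 8 and Dnaja1 in 3. Dnajb1 did not pass in DESeq2 without control replicate 1 (adjusted p = 0.0575), control replicate 2 (0.0776) or knockout replicate 3 (0.0609), and Dnaja1 passed without control replicate 3 but not without any other single library, under the replicate block (0.0816), on halved counts (0.061) or with no filter (0.0536). Control replicate 3 was the lowest control for 6 of the 11 heat shock genes (54.5%, against 34.8% of all genes), and the lowest of all 6 libraries for none. Their median deviation was 0.022 there, against 0.16 and 0.091 in the other controls.

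**Figure D5:**
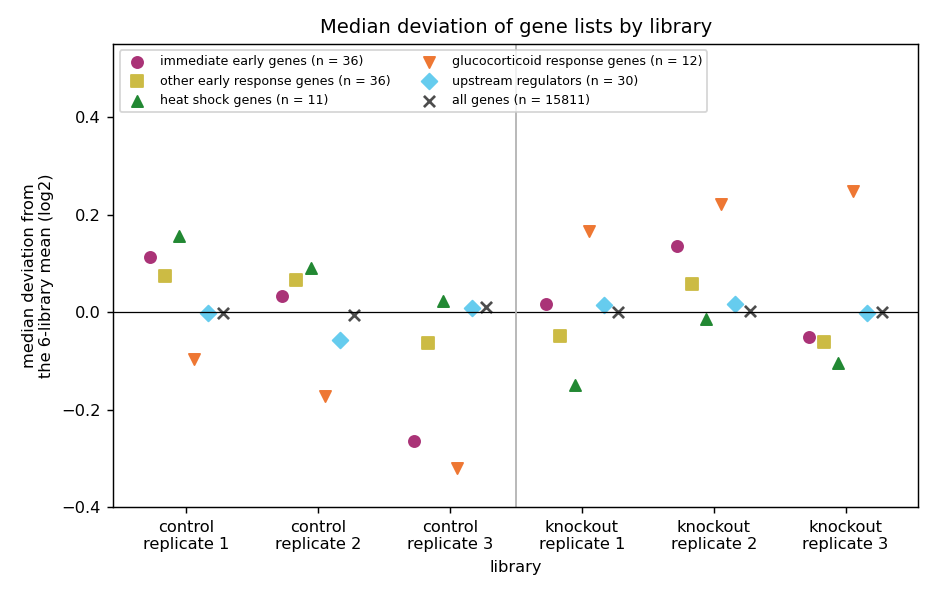
Median deviation of each gene list from its 6-library mean, per library, on the log2 scale. The immediate early genes dip to -0.26 in control replicate 3, the upstream regulators stay near 0 there, the heat shock genes are at 0.022, the lowest of the controls, and the glucocorticoid list separates by genotype and is lowest, at -0.32, in the same library.

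A list of 12 glucocorticoid response genes holds Errfi1 and Dusp1 as well. On this list 6 genes rose in DESeq2 (Zbtb16, Mt2, Fkbp5, Mt1, Errfi1 and Pdk4) and none fell, against 1.53% and 0.657% of all genes. Of these 6, Zbtb16 and Mt2 also passed in edgeR (adjusted p = 0.00142 and 0.0496), where 0.0952% of all genes rose. Pdk4 passed in 5 of 13 alternatives and was lost under the replicate block (0.0533), on halved counts (0.0571) and, in DESeq2, without control replicate 1 (0.128) or knockout replicate 1 (0.0912), 2 (0.0894) or 3 (0.224). Fkbp5, a co-chaperone of the glucocorticoid receptor, was at 9427 to 14111 normalized counts in controls and 18216 to 20447 in knockouts. Control replicate 3 was the highest control for Fkbp5 and the lowest for Errfi1. The list's median deviation was -0.32 in control replicate 3, below that of the members, and -0.096 and -0.17 in the other controls, and it ran from 0.17 to 0.25 over the knockouts. Whether this moves Errfi1 was not tested.

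Marker genes of the cell types an islet preparation can hold were followed beside these values. Beta-cell markers summed to 18284600 to 21344700 normalized counts over the controls and to 20546700 to 20772400 over the knockouts, and alpha-cell markers to 4065810 to 5864710 and 2990060 to 3691330. Of the 5 beta-cell markers none passed in DESeq2 or edgeR, and 2 had an unadjusted p under 0.05 in each. For 2 of the 5 every knockout was below every control library, and their median log2 fold change over all 5 was 0.024. Over all genes 1.53% rose and 0.657% fell in DESeq2, and 9.03% had an unadjusted p under 0.05 in that test. Of the 6 alpha-cell markers 4 fell in DESeq2 and 0 passed in edgeR, with all 6 at an unadjusted p under 0.05 in both. The 6 fibroblast and stellate-cell markers summed to 49335 to 64535 in controls and 93800 to 100527 in knockouts, lowest in control replicate 3, and 5 of the 6 rose in DESeq2, 3 also in edgeR. The 5 acinar markers summed to 403870 to 809079 in controls and 1017090 to 1449980 in knockouts, again lowest in control replicate 3 and highest in knockout replicate 2, as for Fos and Egr1. None of the 5 passed in DESeq2 or edgeR, and all 5 had an unadjusted p under 0.05 in both. The sums of delta-cell (347807 to 458971 in controls and 270528 to 437216 in knockouts), endothelial (68571 to 77439 and 71264 to 82838), macrophage (8863 to 9870 and 8306 to 9957), duct (4219 to 6162 and 5933 to 6266) and Schwann-cell markers (3663 to 4829 and 3434 to 3765) overlapped between genotypes. For all 3 delta-cell markers control replicate 3 was the lowest control, with a median deviation of -0.25 there, and it was 0.22 in knockout replicate 2 and -0.28 in knockout replicate 3. Of the macrophage markers Cd68 rose in DESeq2 (log2 fold change 0.53, adjusted p = 0.0416, 0.314 in edgeR), and Cd68, Csf1r and Lyz2 were higher in every knockout than in every control library; the median log2 fold change of the 5 was 0.21, and before adjustment 3 had p under 0.05 in DESeq2 and 2 in edgeR. Among lymphocyte genes, Cd79a was at 1536 to 1657 normalized counts in controls and 1327 to 1393 in knockouts, without overlap (log2 fold change -0.23, adjusted p = 0.188 in DESeq2). Cd3e was at 6.36 to 26.9 in controls and 0 to 5.67 in knockouts, also without overlap, and Ptprc at 501 to 576 and 487 to 589. The part of these cells in the members' values was not tested.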

How the data were processed

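Whole-islet polyadenylated RNA of 3 control and 3 knockout libraries was sequenced. The authors deposited 1 table of raw counts per gene; per the submitters' processing notes FastQC, STAR, featureCounts, DESeq2 and mm10 were used, and per the labels' protocols RNA came from the Qiagen RNeasy Mini kit and libraries from the Tecan Universal Plus mRNA-seq kit. How read pairs and strand were counted is not given in the sources used here. From 84.3% to 87.3% of counts between 1 and 20 were even, so the counting error can be larger than the counts imply. All 55536 gene identifiers and symbols matched GENCODE M21 on GRCm38, which gave exon lengths and coordinates.

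The main test was the DESeq2 1.42.0 Wald test in R 4.3.3, named in the series' design text, on 25210 genes with at least 10 counts in total, with median-of-ratios size factors (0.943 to 1.06) and a Benjamini-Hochberg adjusted p under 0.05 over all genes. edgeR 4.0.16 was an alternative, beside TMM factors, other filters, a replicate block, each library left out and, added after the data were seen, halved counts. Deviations used log2(normalized count + 1). A count of 0 allows 3 counts, or 0.0272 to 0.0296 CPM.

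The chi-square over its degrees of freedom between libraries of a group was 40.3 to 120.9, so no pair agreed within sampling noise. Values in every library are given for Fos, Jun, Egr1, members past the threshold, the 5 with the largest fold change and the 10 with the widest range. The members and lists were chosen with earlier results of these data known.
The summed level of 1 cell-type marker list is not reported here.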

Additional observations from a re-analysis of the deposited data

How the results depend on the processing

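Leaving out 1 library at a time, the number of genes past the threshold in DESeq2 ran from 153 (without knockout replicate 1) to 952 (without control replicate 3), and that of the immediate early genes from 2 to 6. edgeR gave 29 genes, or 26 on halved counts, and 0 immediate early genes either way. With the replicate block DESeq2 gave 405 genes and 2 immediate early genes (adjusted p = 0.000372 for Fosb and 0.000139 for Errfi1). Deviations of same-numbered libraries correlated at -0.048, -0.059 and 0.010 over 15811 genes, so the numbers do not pair the libraries.

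The log2 fold change of Fosb stayed between 0.37 and 0.58 and that of Errfi1 between 0.44 and 0.71 over all 13 alternatives, the replicate block included. The median log2 fold change ran from -0.038 to 0.14 and the median SD in controls from 0.065 to 0.31 with 1 library left out. Genes past the threshold with 1 library left out numbered 2 to 8 of the other early response genes, 0 to 1 of the upstream regulators, 0 to 3 of the delayed targets, 0 to 2 of the heat shock genes and 5 to 6 of the glucocorticoid list. In edgeR they numbered 0, 0, 0, 0 and 2, and on halved counts in edgeR 0, 0, 0, 0 and 1. Upstream regulators past the threshold numbered 0 with the replicate block and on halved counts, delayed targets 1 with the block, and heat shock genes 1 with the block, on halved counts and with no filter. The causes were not tested.

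Signs turned for some members. With the replicate block Fosl1 was at 0.22, Npas4 at 0.17, Nfil3 at 0.013 and Egr3 at 0.11, and with a stricter filter Egr3 at 0.000257. With 1 library left out the log2 fold change ran from -0.32 to 0.61 for Egr3, -0.78 to 1.55 for Fosl1, -0.58 to 0.34 for Npas4, -0.26 to 0.20 for Nfil3, -0.46 to 0.16 for Myc, -0.043 to 0.059 for Ier2, -0.026 to 0.049 for Dusp5, -0.089 to 0.056 for Zfp36l1, -0.25 to 0.34 for Trib1, -0.23 to 0.43 for Atf3, -0.022 to 0.29 for Egr1, -0.068 to 0.25 for Dusp1, -0.15 to 0.14 for Dusp6, -0.064 to 0.021 for Plk2, -0.066 to 0.10 for Btg1, -0.081 to 0.25 for Gadd45b, -0.11 to 0.27 for Ier5l, -0.070 to 0.61 for Rgs2 and -0.040 to 0.25 for Arc. Raw counts were at most 52 in every library for Fosl1, Egr3 and Egr4, and the 95% interval of Egr3 ran from -1.19 to 1.19.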
